A study of Caenorhabditis elegans with 11 samples.

Results

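The methyl ester of tryptophan-betaxanthin was compared with water in tumoral worms. A betaxanthin is a yellow plant pigment in which betalamic acid is condensed with an amine. In the methyl ester the carboxyl group of the tryptophan unit carries a methyl group, and in the related benzyl ester it carries a benzyl group. The comparison was defined by the sample labels alone, which give 3 arrays of methyl ester-treated animals (trials 1, 2 and 3) and 2 arrays of water-treated animals (trials 1 and 2), 5 of the 11 arrays of the series. The other arrays were 3 of the benzyl ester and 3 of tryptophan-betaxanthin. Every group was given its compound at 25 µM, or water in its place, for 48 h, starting 16 to 18 h after hatching. The labels give them as L4 larvae or young adults. Whole animals were pooled for each array, so a level is an average over all tissues.

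All groups, controls included, were JK1466 animals. This strain carries gld-1(q485) over a chromosome marked with dpy-5(e61) and unc-13(e51), so a culture can hold animals of different genotypes. All of them also ate HT115 bacteria that silence gld-1 by RNA interference. gld-1 encodes an RNA-binding translational repressor, without which germ cells entering meiosis return to mitosis and fill the gonad. The gld-1 signal overlapped between the groups. It was 6.74, 7.33 and 5.91 in methyl ester arrays, against 7.32 and 7.43 in water arrays (difference -0.72 ± 0.38, adjusted p = 0.376). Signals are log2 values, so a difference of 1 means 2-fold, and the error after ± is the standard error of the fitted difference unless an SD is named. No untumoral animals were analysed here.

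Animals deal with foreign chemicals in successive steps. Cytochrome P450 enzymes and short-chain dehydrogenases oxidise or reduce the compound, UDP-glucuronosyltransferases and glutathione S-transferases attach a polar group, and ABC transporters pump the product out of the cell. In C. elegans these genes are expressed mainly in the intestine, are controlled in part by a large family of nuclear hormone receptors, and share regulation with genes of lipid metabolism and of the defence against microbes. The germline makes up much of the adult body, so the state of the gonad strongly affects the RNA of a whole animal.

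The methyl ester array of the third trial stood apart from its replicates. On the first principal component, which held 52.8% of the variance of all 11 arrays, the methyl ester arrays of trials 1, 2 and 3 lay at 5.89, -3.23 and 68.4, against -34.6 and -32.8 for the water arrays. The benzyl ester array of the third trial lay at 60.7, beside it. No water array of the third trial was analysed here. Values are therefore given array by array for many genes, and the medians of many gene groups are given with and without the third methyl ester array. The medians of the other groups include that array.

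Of 26761 probe sets with a gene symbol, 60 were higher and 9 were lower in methyl ester than in water animals at an adjusted p under 0.05, which is 0.224% and 0.0336% of those tested. Before adjustment 2208 probe sets were higher and 2176 lower (8.25% and 8.13%). The 60 higher probe sets had differences of 0.64 to 3.93, with a median of 1.12, and 40 reached 1 log2 unit. The 9 lower ones ranged from -1.89 to -0.71. Of the 69, 66 carry a single gene symbol and 2 are identical copies of one measurement. In all 69 the methyl ester and the water arrays did not overlap, which was also so for 5472 higher (20.4%) and 5560 lower (20.8%) of all probe sets. The calls depended on having both water arrays. With water trial 1 left out only T16G1.6 passed, and with water trial 2 left out none did (1146 higher and 902 lower at an unadjusted p under 0.05). A fit on the 5 arrays of this comparison alone called none (2056 higher and 2066 lower unadjusted), while the fit without the third trial of every compound called 616, including all 69.

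Other single arrays also moved the count of 69. It was 27 without methyl ester trial 1, 135 without methyl ester trial 2, 120 without benzyl ester trial 3 and 42 without benzyl ester trial 2, and it was 19, 17 and 28 without tryptophan-betaxanthin trials 1, 2 and 3. The compound arrays matter because all 4 groups share 1 estimate of the spread. Without the third methyl ester array 54 passed, 42 of them among the 69. Of the genes described below, T20F10.9, oac-20, gst-30, daf-22, cth-1, nhr-68, nhr-114, cnc-3, clc-27, swt-7, dhs-27, cyp-13B1, B0365.9, clec-186, clec-210 and clec-227 missed the threshold without that array. T16G1.6 passed in 10 of the 11 fits that each left out 1 array, the most of any gene, and missed the threshold only without water trial 2.

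**Figure D1:**
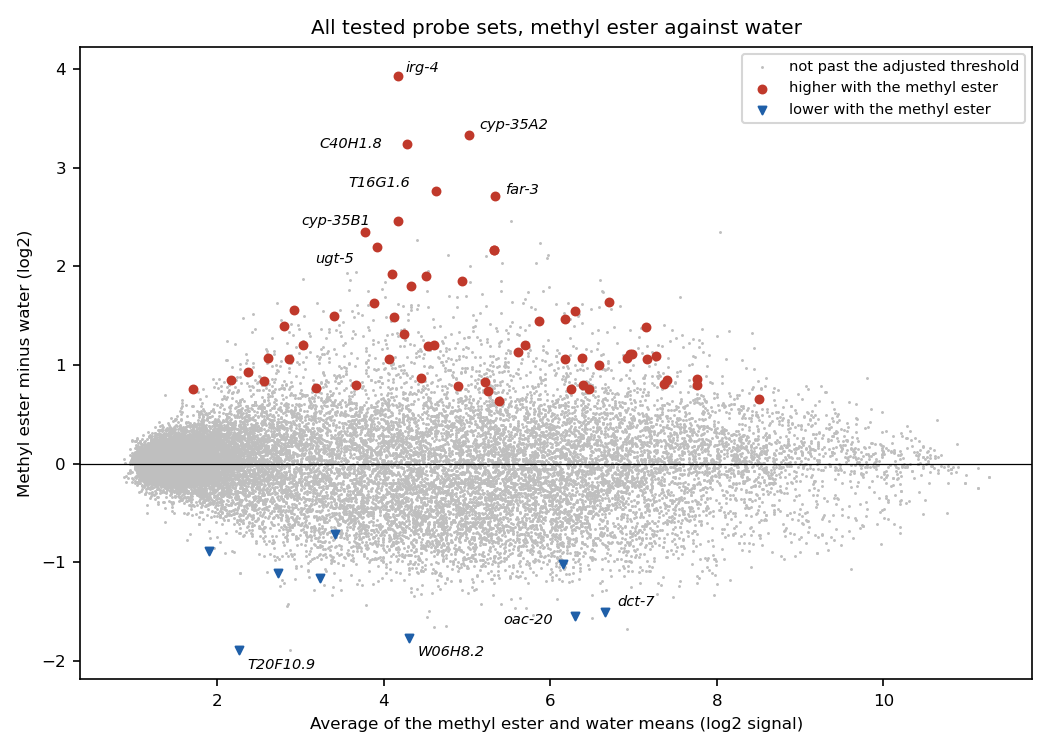
Each point is 1 probe set, with the average of the methyl ester and water means on the horizontal axis and the methyl ester minus water difference on the vertical axis, both in log2 units. The 60 higher probe sets (red circles) reach 3.93 for irg-4, while the 9 lower ones (blue triangles) go down to -1.89 for T20F10.9.

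The P450 genes of the cyp-35 family were among the most induced. cyp-35A2, an enzyme gene widely used as a sign of a xenobiotic response, had signals of 6.63, 6.25 and 7.18 in methyl ester arrays, against 3.37 and 3.36 in water arrays. The lowest methyl ester array was far above both water arrays, and the difference was 3.33 ± 0.33 (adjusted p = 0.00724). cyp-35B1 had 5.11, 5.05 and 6.03 in methyl ester arrays, against 2.94 and 2.93 in water arrays (2.46 ± 0.29, adjusted p = 0.0146). cyp-35C1 had 5.77, 5.27 and 5.33 in methyl ester arrays, against 3.48 and 3.62 in water arrays (1.90 ± 0.18, adjusted p = 0.00635). For these 3 genes the water arrays were nearly equal, and cyp-35A2 and cyp-35B1 were highest in the third methyl ester array. cyp-35D1 rose at the bottom of the scale, with 2.16, 2.20 and 1.90 in methyl ester arrays, against 1.27 and 1.39 in water arrays (0.76 ± 0.11, adjusted p = 0.0381). Both of its groups lay below 2.27, the median of all tested values.

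The induction did not extend evenly over the family. The other cyp-35 members had differences between 0.11 (cyp-35A3 and cyp-35B2) and 0.51 (cyp-35A5, adjusted p = 0.121), with water means of 1.11 to 1.61. Outside cyp-35, cyp-13B1 also rose, with 3.67, 3.36 and 3.69 in methyl ester arrays, against 2.75 and 2.85 in water arrays (0.77 ± 0.12, adjusted p = 0.0409). Of 73 P450 probe sets, 5 rose and none fell. Their median difference was 0.16, against 0.01 over all tested probe sets, and 42 of them had a water mean below the median of all values. Over all tested probe sets 8.25% were higher and 8.13% lower unadjusted, which is the background for the later lists too. Of the P450 probe sets 22 were higher and 1 lower. cyp-25A1 was the largest of these that missed the threshold, with 6.09, 5.60 and 7.59 in methyl ester arrays, against 4.37 and 4.43 in water arrays (2.03 ± 0.47, adjusted p = 0.14). Its groups did not overlap, and the third methyl ester array was the highest.

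**Figure D2:**
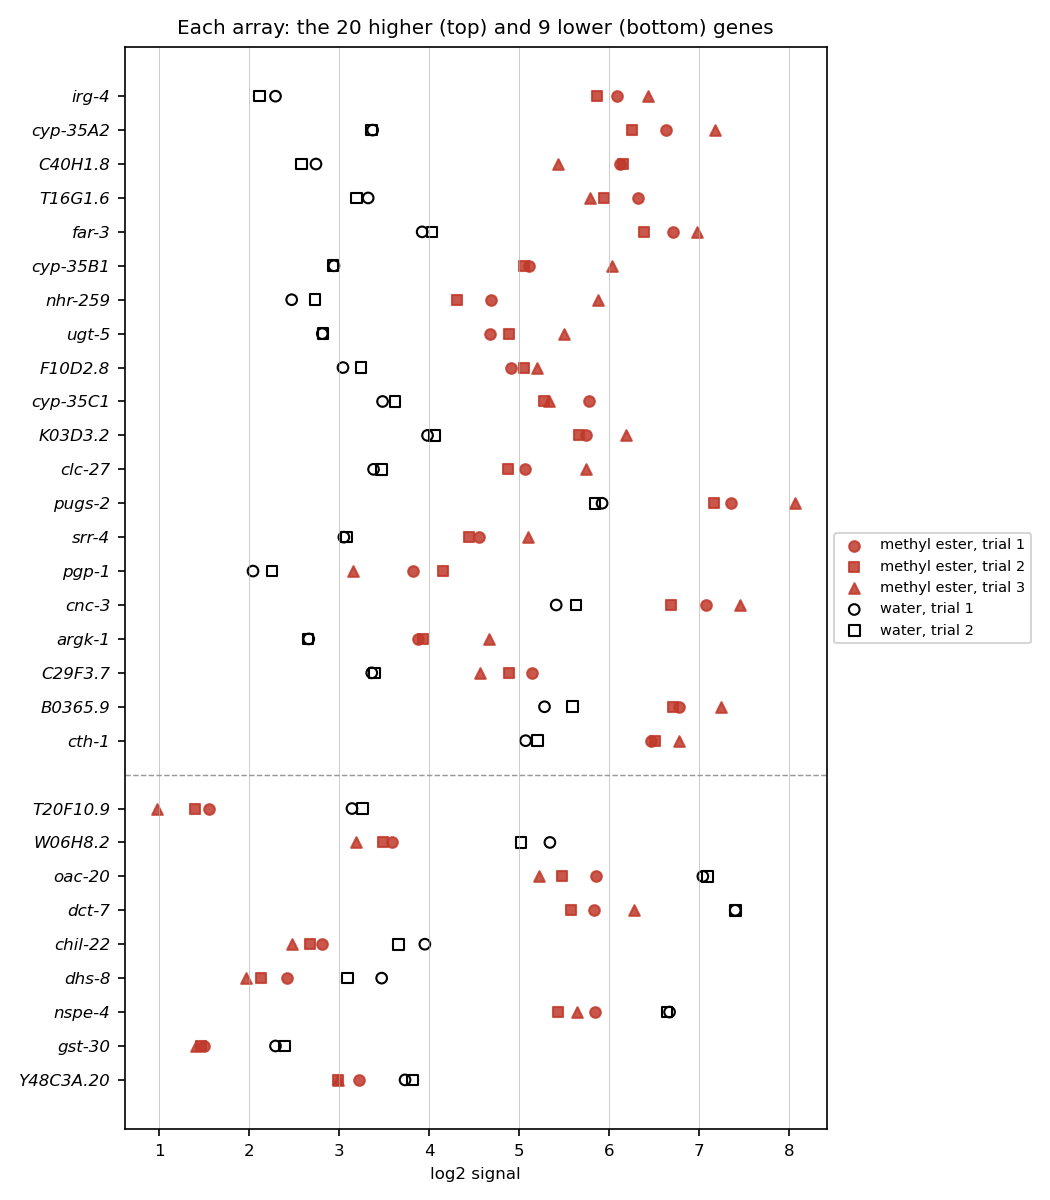
Log2 signal (horizontal axis) of the 20 genes with the largest called increase and, under the dashed line, the 9 called decreases, with filled red symbols for methyl ester arrays and open black symbols for water arrays, and the symbol shape giving the trial. The methyl ester symbols lie right of both water symbols in all 20 upper rows and left of them in all 9 lower rows, and the triangles of trial 3 are the rightmost in 15 of the upper rows and the leftmost in 6 of the lower rows.

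Among the conjugating enzymes, ugt-5 had the largest increase. This UDP-glucuronosyltransferase gene had signals of 4.67, 4.88 and 5.50 in methyl ester arrays, against 2.81 and 2.82 in water arrays (2.20 ± 0.25, 4.59-fold, adjusted p = 0.0132). ugt-41 rose from a low level, to 2.84, 2.98 and 2.67 in methyl ester arrays, against 1.85 and 1.94 in water arrays (0.93 ± 0.12, adjusted p = 0.0236). The whole family moved less than these members. Of 67 ugt probe sets 2 rose and none fell, 20 were higher and 2 lower unadjusted, and the median was 0.25 with the third methyl ester array and 0.27 without it. Without the third trial of every compound 13 ugt and 11 P450 probe sets were higher and none lower, in a fit with 616 calls in all. In the separate arrays the ugt median lay 0.31, 0.22 and 0.28 above the water mean, so all 3 methyl ester arrays shared this shift, and for the P450 genes it was 0.30, 0.20 and 0.23. ugt-65 came close to the threshold (0.93 ± 0.17, adjusted p = 0.0803).

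The glutathione S-transferases, enzymes that join glutathione to reactive compounds, did not move one way. Of 49 members none rose and 1 fell, 13 were higher and 5 lower unadjusted, and the median was 0.03. gst-30 fell, with 1.50, 1.46 and 1.41 in methyl ester arrays, against 2.29 and 2.39 in water arrays (-0.88 ± 0.14, adjusted p = 0.0475). The methyl ester values lay below the median of all values and were close together. gst-35 was higher in every methyl ester array than in both water arrays, with 6.77, 6.65 and 6.85 in methyl ester arrays, against 4.45 and 4.13 in water arrays, but its difference of 2.46 ± 0.54 did not pass (adjusted p = 0.125). gst-12 had 6.26, 5.78 and 5.12 in methyl ester arrays, against 7.32 and 7.23 in water arrays (-1.56 ± 0.28, adjusted p = 0.0687). fmo-2, which encodes a flavin-containing monooxygenase, had 8.98, 8.98 and 9.69 in methyl ester arrays, against 6.90 and 6.83 in water arrays (2.35 ± 0.67, adjusted p = 0.185). For these 3 genes too the arrays did not overlap.

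The short-chain dehydrogenases of the dhs family had a median difference of 0.41 (0.33 without the third methyl ester array), and 16 of 30 were higher and 1 lower at an unadjusted p. After adjustment 1 rose and 1 fell. dhs-27 had 5.68, 5.55 and 5.61 in methyl ester arrays, against 4.83 and 4.92 in water arrays (0.74 ± 0.11, adjusted p = 0.0381). dhs-8 fell to 2.42, 2.13 and 1.96 in methyl ester arrays, against 3.47 and 3.09 in water arrays (-1.11 ± 0.15, adjusted p = 0.0236). Among 22 ABC efflux transporters the median was 0.01 and 1 rose. It was pgp-1, a P-glycoprotein, with 3.82, 4.15 and 3.15 in methyl ester arrays, against 2.04 and 2.25 in water arrays (1.56 ± 0.24, 2.95-fold, adjusted p = 0.0386). pgp-1 was lowest in the third methyl ester array.

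The largest increase of all was that of irg-4, a gene induced by bacterial infection. Its signals were 6.09, 5.86 and 6.43 in methyl ester arrays, against 2.29 and 2.11 in water arrays, a 15.2-fold difference (3.93 ± 0.49, adjusted p = 0.0179). The water level was near the median of all values, while all 3 methyl ester arrays were well above it. No other member of the irg and dod immune genes passed (24 measured, median 0.17). Within that list irg-5 had 2.23, 2.39 and 3.27 in methyl ester arrays, against 1.59 and 1.57 in water arrays (1.05 ± 0.26, adjusted p = 0.158).

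Few other defence genes passed the adjusted test. ilys-2, an invertebrate-type lysozyme, had 3.60, 3.45 and 3.46 in methyl ester arrays, against 2.00 and 2.21 in water arrays (1.40 ± 0.18, adjusted p = 0.0212). ilys-3 had a larger difference that did not pass, with 5.83, 5.64 and 6.62 in methyl ester arrays, against 3.98 and 4.09 in water arrays (2.00 ± 0.34, adjusted p = 0.0647). lys-6 differed by 0.60 ± 0.12 (adjusted p = 0.0907). Of 16 lysozyme genes 1 passed, 4 were higher and 1 lower unadjusted, and the median was 0.15. Without the third methyl ester array 2 passed as higher, in a fit with 54 calls in all. cnc-3, an antimicrobial peptide of the caenacin type, had 7.07, 6.69 and 7.45 in methyl ester arrays, against 5.41 and 5.63 in water arrays (1.55 ± 0.25, adjusted p = 0.0454). Its relative cnc-7 lay on the other side, with 6.50, 6.03 and 5.73 in methyl ester arrays, against 7.78 and 7.73 in water arrays, and did not pass (-1.67 ± 0.36, adjusted p = 0.121). Of the C-type lectins, carbohydrate-binding proteins of which many are secreted, 3 of 240 rose and none fell, with a median of 0.05 and with 24 higher and 22 lower unadjusted. The 3 were clec-227 (1.06 ± 0.16), clec-186 (1.00 ± 0.13) and clec-210 (0.85 ± 0.12), with adjusted p between 0.0236 and 0.0398. clec-186 had almost the same level in the 3 methyl ester arrays (7.05, 7.08 and 7.10), against 6.04 and 6.12 in water arrays. Of 88 antimicrobial peptide genes 1 rose, and the median was 0.05.

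Single genes of lipid handling passed the test, while most of their lists did not. far-3, a gene for a protein that binds fatty acids and retinol, had 6.71, 6.39 and 6.98 in methyl ester arrays, against 3.92 and 4.03 in water arrays (2.71 ± 0.25, 6.56-fold, adjusted p = 0.00635). The other 16 members of its list did not pass, and the list's median was 0.12. acox-1.4, a peroxisomal acyl-CoA oxidase, had 6.11, 6.01 and 6.41 in methyl ester arrays, against 5.08 and 5.02 in water arrays (1.13 ± 0.14, adjusted p = 0.0176). daf-22, the peroxisomal thiolase that completes the side chains of ascaroside pheromones, had 7.73, 7.76 and 7.81 in methyl ester arrays, against 6.86 and 7.05 in water arrays (0.81 ± 0.13, adjusted p = 0.0409). Both act in the same chain-shortening cycle, and both were higher in each methyl ester array than in either water array. Of 32 beta-oxidation genes 2 rose, none fell, 15 were higher unadjusted, and the median was 0.37 (0.31 without the third methyl ester array).

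None of 21 genes of fatty acid synthesis, desaturation and elongation passed (median 0.23, and 0.10 without the third methyl ester array). fat-7, a stearoyl-CoA desaturase, had 8.39, 8.37 and 8.25 in methyl ester arrays, against 7.07 and 7.10 in water arrays (1.26 ± 0.28, adjusted p = 0.13). fat-5, a palmitoyl-CoA desaturase, had 7.01, 7.16 and 7.43 in methyl ester arrays, against 6.18 and 6.33 in water arrays (0.95 ± 0.19, adjusted p = 0.0971). Neither gene overlapped between the groups. Among called genes outside these lists, plpp-1.2, a lipid phosphate phosphatase, had 7.47, 7.42 and 7.50 in methyl ester arrays, against 6.33 and 6.45 in water arrays (1.07 ± 0.12, adjusted p = 0.0125). The choline kinase gene ckb-4 differed by 0.87 ± 0.10 (adjusted p = 0.0125). Neither group overlapped with water for these 2 genes.

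Of 275 nuclear hormone receptors, ligand-regulated transcription factors, 3 rose and none fell, with a median of 0.12. nhr-259 had 4.68, 4.31 and 5.87 in methyl ester arrays, against 2.47 and 2.73 in water arrays (2.35 ± 0.37, 5.10-fold, adjusted p = 0.0434). nhr-114, a receptor needed for fertility on some bacterial diets, had 5.02, 5.0 and 5.35 in methyl ester arrays, against 3.82 and 4.05 in water arrays (1.19 ± 0.18, adjusted p = 0.0381). nhr-68, which acts in the transcriptional control of propionate breakdown, had 5.71, 5.51 and 5.67 in methyl ester arrays, against 4.71 and 4.88 in water arrays (0.83 ± 0.12, adjusted p = 0.0301). nhr-259 varied most among the methyl ester arrays, while nhr-114 and nhr-68 varied little.

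nhr-114 and nhr-68 also belong to the genes of propionate and methionine metabolism, of which 3 of 28 rose and none fell. The third was cth-1, a cystathionine gamma-lyase, which releases cysteine from cystathionine, with 6.46, 6.51 and 6.77 in methyl ester arrays, against 5.07 and 5.20 in water arrays (1.45 ± 0.20, adjusted p = 0.0272). Unadjusted, 11 of the 28 were higher and none lower. The median was 0.32, and 0.34 without the third methyl ester array. The serine hydroxymethyltransferase gene mel-32 (0.51 ± 0.10, adjusted p = 0.0913) and the S-adenosylmethionine synthetase gene sams-1 (0.41 ± 0.12, adjusted p = 0.196) were above water in each methyl ester array, and so was acdh-1, the acyl-CoA dehydrogenase of the propionate shunt (0.54 ± 0.15, adjusted p = 0.182). None of 15 genes of tryptophan and serotonin metabolism passed, although the compound is built on tryptophan. Their median was 0.07, with 2 higher and 1 lower unadjusted. The smallest p of the list was that of aat-1, with 6.39, 6.47 and 7.24 in methyl ester arrays, against 5.72 and 5.73 in water arrays (0.97 ± 0.28, adjusted p = 0.187). It passed without the third trial of every compound (0.70, adjusted p = 0.0128), in a fit with 616 calls in all. The lower gene was wars-1 (-0.52 ± 0.21, adjusted p = 0.267), whose groups overlapped. The groups also overlapped for tdo-2, the tryptophan dioxygenase, with 7.56, 7.01 and 6.89 in methyl ester arrays, against 7.07 and 7.05 in water arrays.

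The smallest adjusted p belonged to T16G1.6. Its signals were 6.32, 5.94 and 5.79 in methyl ester arrays, against 3.32 and 3.19 in water arrays (2.76 ± 0.18, 6.78-fold, adjusted p = 0.00103). Genes of the same name stem followed in part. Of 13 probe sets with this name 1 rose and 6 were higher unadjusted, among them T16G1.3 (0.50 ± 0.13, adjusted p = 0.17) and T16G1.5 (0.47 ± 0.14, adjusted p = 0.188), both with much smaller differences. Whether probe sets of these genes share signal was not tested.

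Other called genes belonged to no list and are given singly. hmit-1.1, a proton-coupled myo-inositol transporter, had 6.90, 6.87 and 6.97 in methyl ester arrays, against 5.78 and 5.91 in water arrays (1.07 ± 0.10, adjusted p = 0.00635). swt-7, a sugar transporter of the SWEET family, had 7.57, 7.85 and 7.68 in methyl ester arrays, against 6.60 and 6.67 in water arrays (1.06 ± 0.15, adjusted p = 0.0272). argk-1, an arginine kinase, had 3.87, 3.93 and 4.66 in methyl ester arrays, against 2.66 and 2.65 in water arrays (1.50 ± 0.22, 2.83-fold, adjusted p = 0.0381). apy-1, an apyrase that splits nucleoside diphosphates, rose by less, with 8.11, 8.12 and 8.24 in methyl ester arrays, against 7.34 and 7.37 in water arrays (0.80 ± 0.09, adjusted p = 0.0134). hmit-1.1, swt-7 and apy-1 had narrow groups, while argk-1 was clearly higher in the third methyl ester array than in the other two. Of the remaining large increases, clc-27, a claudin-like membrane protein, rose by 1.80 ± 0.29 and srr-4, a serpentine receptor, by 1.63 ± 0.21. C40H1.8 (3.24 ± 0.43), F10D2.8 (1.92 ± 0.18), K03D3.2 (1.85 ± 0.16), pugs-2 (1.64 ± 0.26), C29F3.7 (1.49 ± 0.17) and B0365.9 (1.47 ± 0.22) completed the 20 largest among probe sets of a single gene. F10D2.8 has a second probe set, below the median of all values, that did not move (0.10 ± 0.12). C40H1.8 had 6.12, 6.15 and 5.43 in methyl ester arrays, against 2.74 and 2.58 in water arrays. Of the 69 called probe sets, 58 could be placed on a chromosome through RefSeq names, and 27 of these (46.6%) were on chromosome V, which holds 22.1% of the placed probe sets tested. The cyp-35 genes are among them.

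The decreases were few. T20F10.9 had 1.55, 1.40 and 0.97 in methyl ester arrays, against 3.14 and 3.26 in water arrays (-1.89 ± 0.28, 3.71-fold lower, adjusted p = 0.0386). W06H8.2 had 3.58, 3.49 and 3.18 in methyl ester arrays, against 5.34 and 5.02 in water arrays (-1.76 ± 0.18, 3.39-fold lower, adjusted p = 0.0108). oac-20, an O-acyltransferase homologue, had 5.85, 5.48 and 5.22 in methyl ester arrays, against 7.04 and 7.09 in water arrays (-1.54 ± 0.25, adjusted p = 0.046). In these 3 the third methyl ester array was the lowest. dct-7 belongs to genes named from a screen for targets of DAF-16, the FOXO factor of insulin signalling, that affect gld-1 germline tumours. It had 5.83, 5.58 and 6.28 in methyl ester arrays, against 7.40 in both water arrays (-1.50 ± 0.22, 2.83-fold lower, adjusted p = 0.0325). The 15 other dct genes measured did not pass, and the 16 had a median of 0.10, with 5 higher and 2 lower unadjusted. The dct genes were grouped after their values were seen. chil-22, a chitinase-like gene, fell by 1.16 ± 0.13 (adjusted p = 0.0132) and nspe-4 by 1.02 ± 0.12 (adjusted p = 0.0134).

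Genes of the cuticle, the collagen coat that worms rebuild at each moult, were higher, mostly without passing the adjusted test. Over all probe sets 8.25% were higher unadjusted, and 20.4% did not overlap on the higher side. None of 30 moulting genes passed, while 14 were higher and none lower unadjusted and 22 did not overlap, all 22 on the higher side. Their median was 0.84 with the third methyl ester array and 0.51 without it, and in the separate arrays it lay 0.49, 0.56 and 1.56 above the water mean. lpr-3, a lipocalin-related protein of the outer matrix, had 6.36, 6.45 and 7.71 in methyl ester arrays, against 4.63 and 4.99 in water arrays (2.03 ± 0.60, adjusted p = 0.193). Its relatives lpr-4 (2.08 ± 0.55) and lpr-5 (2.24 ± 0.58) lay alike, and the 3 genes were highest in the third methyl ester array. Of 171 collagen genes none passed, 55 were higher and 6 lower unadjusted, and the median was 0.20. dpy-3, a collagen of the cuticle furrows, had 5.53, 5.39 and 6.55 in methyl ester arrays, against 3.51 and 3.92 in water arrays (2.11 ± 0.56, adjusted p = 0.17). Of 86 hedgehog-related genes, which serve the epidermis and its matrix, 1 rose (grd-15, 1.31 ± 0.21, adjusted p = 0.0475). The median of this list was 0.33 (0.21 without the third methyl ester array). Without the third trial of every compound the calls were 23 higher and 2 lower for the collagens, 11 higher for the moulting genes and 18 higher for the hedgehog-related genes, with none lower in these last lists. That fit called 489 higher and 127 lower of all 26761 probe sets. bli-2, a collagen of the adult cuticle struts, had 7.51, 7.45 and 8.38 in methyl ester arrays, against 6.38 and 6.43 in water arrays (1.37 ± 0.26, adjusted p = 0.0907), and passed without the third trial (adjusted p = 0.0037). The 7 markers of the hypodermis had a median of 0.89 (0.52 without the third methyl ester array). None passed, 5 lay above both water arrays without overlap and 1, elt-3, below them (-0.15). In whole animals more cells of a type, or fewer, and more or less RNA in each of them cannot be told apart, here and for the germline lists.

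**Figure D3:**
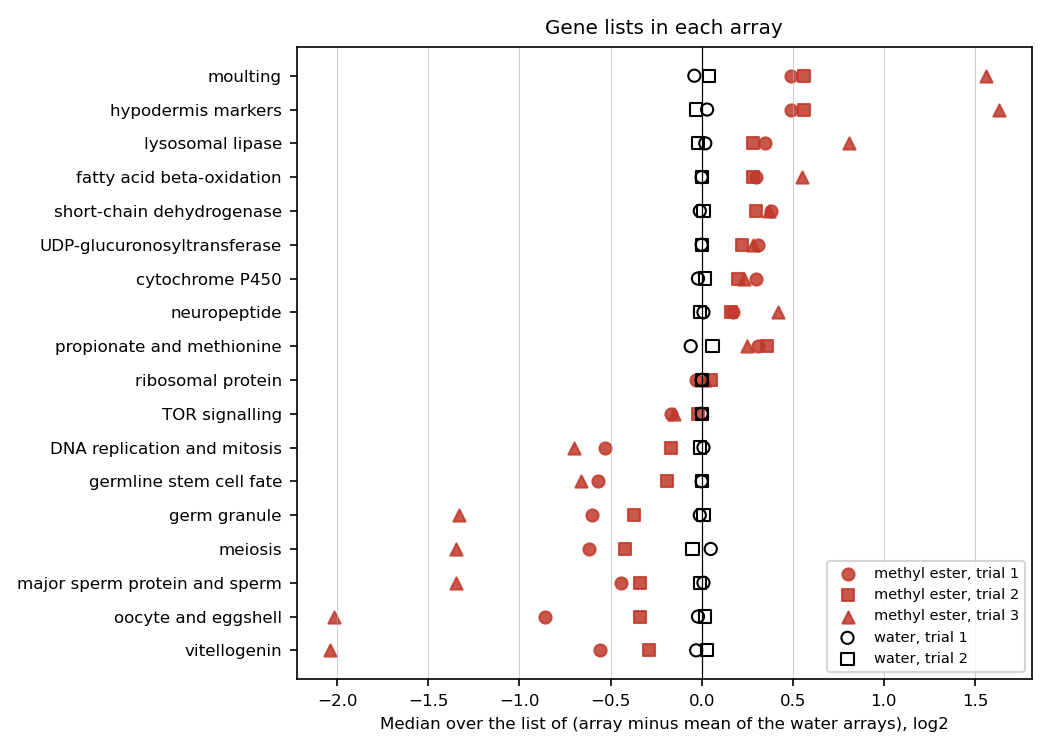
For each gene list, the median over its members of the array's log2 signal minus the mean of the water arrays (horizontal axis), with filled red symbols for methyl ester arrays, open black symbols for water arrays and the shape giving the trial. For moulting genes and hypodermis markers at the top and for the germline lists at the bottom, trial 3 lies farthest from the water arrays (1.56 for moulting, -2.02 for oocyte), whereas the P450 and ugt medians of the 3 methyl ester arrays lie within 0.20 to 0.31.

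Genes of the germline lay on the other side, and none passed the adjusted test. Over all probe sets 8.13% were lower unadjusted, and 20.8% did not overlap on the lower side. Without the third trial of every compound 1 meiosis gene and 2 sperm genes passed as lower. No gene of the other germline lists passed in that fit. Of 35 meiosis genes 26 were lower and none higher unadjusted, and 33 did not overlap between the groups, all lower. Their median was -0.78, and -0.51 without the third methyl ester array. coh-3, a meiotic cohesin kleisin, had 3.60, 3.71 and 3.10 in methyl ester arrays, against 4.69 and 4.47 in water arrays (-1.11 ± 0.19, adjusted p = 0.0657). Of 29 oocyte and eggshell genes 15 were lower unadjusted and 27 did not overlap, with a median of -1.09 (-0.62 without the third methyl ester array). The medians of the separate arrays were -0.86, -0.34 and -2.02 relative to water. cpb-3, a germline RNA-binding protein of the CPEB family, had 4.65, 5.40 and 4.04 in methyl ester arrays, against 6.11 and 6.13 in water arrays (-1.42 ± 0.35, adjusted p = 0.158). Of 59 sperm genes 19 were lower and 1 higher unadjusted (median -0.72, and -0.41 without that array), and of 21 germ granule genes 15 were lower (median -0.71, and -0.48 without it). meg-1, a protein of the embryonic germ granules, had 5.45, 5.88 and 3.74 in methyl ester arrays, against 6.59 and 6.52 in water arrays (-1.53 ± 0.64, adjusted p = 0.282).

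The 23 genes of germline stem cell fate had a median of -0.44 (-0.36 without the third methyl ester array), with 10 lower and none higher unadjusted. glp-1, the Notch receptor that keeps germline stem cells dividing, had 4.54, 4.59 and 4.03 in methyl ester arrays, against 4.98 and 5.04 in water arrays (-0.62 ± 0.27, adjusted p = 0.287). The translational regulator nos-3 had 6.57, 6.74 and 5.94 in methyl ester arrays, against 7.12 and 7.30 in water arrays (-0.80 ± 0.22, adjusted p = 0.174). Replication and mitosis genes had a median of -0.48, and -0.38 without the third methyl ester array (20 of 48 lower and none higher unadjusted). The smallest p there was that of the topoisomerase gene top-2 (-0.69 ± 0.15, adjusted p = 0.133). The 15 germline markers had a median of -0.80, or -0.49 without the third methyl ester array. Of them 13 did not overlap, all lower, against 20.8% of all probe sets. In the separate arrays their medians were -0.63, -0.37 and -1.30. These marker medians moved with the germline lists array by array, and their part in the list values was not tested.

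All 6 vitellogenin genes, which encode yolk proteins made in the adult intestine, were below both water arrays in each methyl ester array, but none came near the threshold. vit-2 had 10.17, 10.27 and 9.21 in methyl ester arrays, against 10.50 and 10.56 in water arrays (-0.64 ± 0.41, adjusted p = 0.465). vit-5 had 9.60, 9.81 and 7.81 in methyl ester arrays, against 10.12 and 10.17 in water arrays (-1.07 ± 0.73, adjusted p = 0.496). The third methyl ester array carried most of the difference, since the median of the 6 was -0.56, -0.29 and -2.04 relative to water in the separate arrays. Leaving it out moved the list's median to -0.38 from -0.95. The 11 intestine markers had a median of 0.19, with 7 above both water arrays and none below them. Over all probe sets 20.4% lay above and 20.8% below. The yolk genes and the markers of the tissue that makes yolk thus lay on opposite sides of water.

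The study drew attention to TOR signalling, the growth pathway that senses nutrients, and reported daf-15 and rict-1 as lower than control with the esters. It also discussed the caspases, the proteases of programmed cell death. Its report of higher ced-3 and csp-1 was for tryptophan-betaxanthin, whereas the values here are for the methyl ester. Of 28 TOR pathway genes none passed, with 3 higher and 6 lower unadjusted and a median of -0.02. daf-15, the Raptor subunit of TOR complex 1, had 5.21, 5.30 and 5.25 in methyl ester arrays, against 5.52 and 5.50 in water arrays (-0.26 ± 0.09, unadjusted p = 0.0145, adjusted p = 0.222). rict-1, the Rictor subunit of the other complex, had 3.80, 3.83 and 3.67 in methyl ester arrays, against 3.98 and 4.14 in water arrays (-0.29 ± 0.14, adjusted p = 0.334). For both the arrays did not overlap and the methyl ester was lower, but the differences were small beside those of the called genes.

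mlst-8, a subunit common to both TOR complexes, had 3.28, 3.44 and 3.13 in methyl ester arrays, against 3.87 and 3.83 in water arrays (-0.56 ± 0.16, adjusted p = 0.185). sinh-1 differed by -0.01 ± 0.17 with overlapping groups, and let-363, the TOR kinase itself, by -0.12 ± 0.16. The caspase gene ced-3 had 3.34, 3.70 and 3.23 in methyl ester arrays, against 4.12 and 4.13 in water arrays (-0.70 ± 0.23, adjusted p = 0.214), while csp-1 lay between 1.45 and 1.49 in all 5 arrays. The 22 genes of cell death and engulfment had a median of -0.04, with 2 lower and none higher unadjusted.

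Insulin signalling restrains the FOXO factor DAF-16. The list of 22 genes under this name had a median of 0.11 (0.03 without the third methyl ester array). Unadjusted, 5 were higher and 2 lower, and there was no adjusted call. daf-16 itself differed by 0.00 ± 0.23 with overlapping groups. The 2 smallest p-values of the list belonged to dao-4 and dao-3, both higher. Whether these 2 genes act in the pathway was not tested. dao-4 had 8.72, 8.45 and 9.26 in methyl ester arrays, against 7.43 and 7.52 in water arrays (1.34 ± 0.26, adjusted p = 0.0913), and dao-3 differed by 1.29 ± 0.28 (adjusted p = 0.121). ins-7, an insulin-like peptide, had 5.68, 5.69 and 4.86 in methyl ester arrays, against 6.43 and 6.40 in water arrays (-1.0 ± 0.30, adjusted p = 0.195). ins-7 was below water in every methyl ester array and lowest in the third.

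Other groups stayed near zero or shifted slightly. The medians were 0.00 for 75 ribosomal protein genes, 0.02 for 33 proteasome genes, 0.04 for 14 body wall muscle markers, 0.06 for 51 lysosomal and gut proteases, 0.09 for 27 autophagy genes and 0.10 for 61 respiratory chain genes. None of these genes passed. Stress genes other than those of xenobiotic handling were also without a call, with medians of -0.13 for 9 cytosolic heat shock genes, 0.18 for 20 genes of the unfolded protein response, 0.14 for 24 antioxidant genes and 0.14 for 14 hypoxia genes. Without the third methyl ester array the median of the unfolded protein response was 0.04. Neuropeptide genes had a median of 0.25 (0.16 without the third methyl ester array). Of these 108 genes 40 were higher and 1 lower unadjusted with no adjusted call. Over all probe sets 8.25% were higher and 8.13% lower unadjusted, and 20.4% lay above both water arrays and 20.8% below. The 13 neuron markers lay in the same direction as the neuropeptide genes (median 0.36, and 0.25 without the third methyl ester array). Of the markers 9 lay above both water arrays and none below. Their part in the neuropeptide values was not tested.

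The methyl ester was also set against the related compounds at the same dose and time, in 2 pairs adjusted within each pair over all probe sets. Against tryptophan-betaxanthin, which has the free carboxyl group, 249 probe sets were higher and 117 lower with the methyl ester (0.93% and 0.437%). Against the benzyl ester 10 were higher and 30 lower (0.0374% and 0.112%). With the trial number as a block these totals of 366 and 40 were 2961 and 63. Single arrays moved the total against tryptophan-betaxanthin strongly, to 1625 without methyl ester trial 2 and to 12 without tryptophan-betaxanthin trial 2, while that against the benzyl ester lay between 24 and 54. Since the genes described here were chosen with the methyl ester arrays that also enter these differences, their counts are a description. Of the 69 called probe sets, 48 also differed from tryptophan-betaxanthin, 43 of the higher and 5 of the lower ones (54 with the block), and 7 differed from the benzyl ester (10 with the block). In 68 of the 69 the benzyl ester lay on the same side of water as the methyl ester. These 2 comparisons with water share the water arrays.

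**Figure D4:**
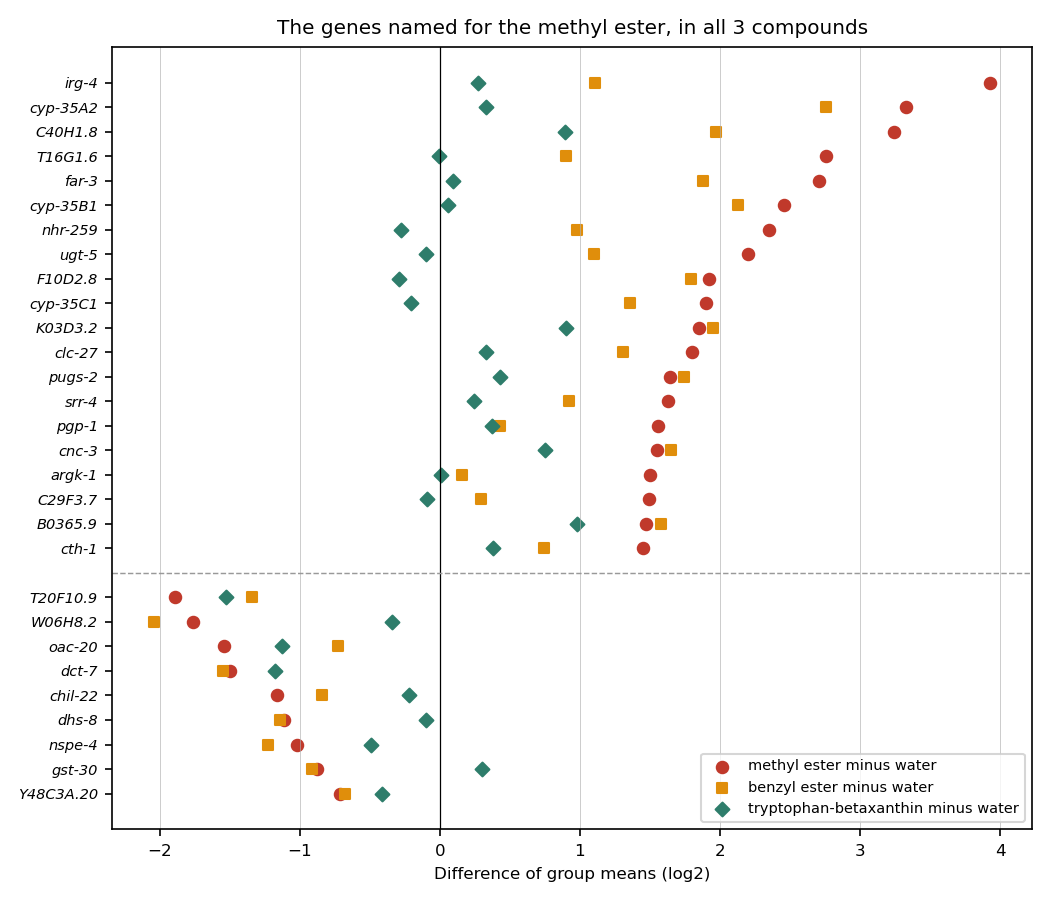
Difference from the water mean in log2 units (horizontal axis) for the genes named for the methyl ester, with red circles for the methyl ester, orange squares for the benzyl ester and green diamonds for tryptophan-betaxanthin. For cyp-35A2 the values are 3.33, 2.76 and 0.33, and for irg-4 they are 3.93, 1.11 and 0.27.

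The cyp-35 increase was also seen against the parent compound. cyp-35A2 was 3.00 higher with the methyl ester than with tryptophan-betaxanthin (95% interval 2.34 to 3.66, adjusted p = 0.00436). Against the benzyl ester its difference was 0.56 (interval -0.09 to 1.22, adjusted p = 1.0), which leaves room for a higher methyl ester level by up to 1.22. cyp-35B1 had differences of 2.40 against tryptophan-betaxanthin (interval 1.81 to 2.98) and 0.33 against the benzyl ester (interval -0.26 to 0.91). far-3 was 2.62 higher than with tryptophan-betaxanthin (interval 2.13 to 3.11, adjusted p = 0.00297) and 0.83 higher than with the benzyl ester (interval 0.34 to 1.32, adjusted p = 0.526). cyp-35D1 was higher than with either compound, by 0.70 against tryptophan-betaxanthin (interval 0.47 to 0.93, adjusted p = 0.0173) and by 0.81 against the benzyl ester (interval 0.58 to 1.04, adjusted p = 0.0152). It was the 1 called gene for which the benzyl ester lay on the other side of water.

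T16G1.6 had the smallest adjusted p between the esters among the called genes. Its signals were 6.32, 5.94 and 5.79 with the methyl ester, against 4.22, 4.29 and 3.94 with the benzyl ester and 3.19, 3.46 and 3.08 with tryptophan-betaxanthin. The methyl ester was 1.86 above the benzyl ester (interval 1.51 to 2.22, adjusted p = 0.0014) and 2.77 above tryptophan-betaxanthin (adjusted p = 0.000351). Of the other called genes that differed between the esters, all but 1 were higher with the methyl ester. argk-1 was 1.34 above the benzyl ester (interval 0.89 to 1.78, adjusted p = 0.0484), C29F3.7 was 1.20 (0.85 to 1.55), swt-7 was 0.88 (0.58 to 1.17) and clec-210 was 0.82 (0.57 to 1.06). Y38H6C.23, the exception, had 4.17, 4.15 and 3.85 with the methyl ester and was 1.21 lower than with the benzyl ester (difference -1.21, interval -1.46 to -0.96, adjusted p = 0.00202). irg-4 was 2.82 higher than with the benzyl ester (interval 1.84 to 3.80), which missed the threshold at an adjusted p of 0.0559 and passed with the trial block (0.00631). fat-7, which did not pass against water, was 2.07 above the benzyl ester (adjusted p = 0.0112) and 1.84 above tryptophan-betaxanthin (adjusted p = 0.0146). Its levels were 6.11, 6.85 and 5.82 with the benzyl ester and 6.85, 6.51 and 6.14 with tryptophan-betaxanthin, all below both water arrays, whereas all 3 methyl ester arrays were above them.

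For some genes the interval of the difference between the esters was narrow and held zero. The difference was 0.02 for hmit-1.1 (interval -0.18 to 0.22), 0.00 for drd-5 (interval -0.19 to 0.19) and 0.04 for daf-22 (interval -0.21 to 0.29). dct-7 was lower than water with the methyl ester by 1.50, and its difference between the esters was 0.05 (interval -0.38 to 0.49). It differed from tryptophan-betaxanthin by -0.32 (interval -0.76 to 0.11, adjusted p = 0.393), so this decrease was not separated from the parent compound, and the same held for oac-20 (-0.41, interval -0.91 to 0.08) and T20F10.9 (-0.36, interval -0.93 to 0.21). W06H8.2, dhs-8, gst-30, chil-22 and nspe-4 were lower with the methyl ester than with tryptophan-betaxanthin, by differences of -1.42, -1.01, -1.18, -0.93 and -0.53. nhr-68 differed from tryptophan-betaxanthin by 0.06 only (interval -0.17 to 0.30).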

How the data were processed

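The deposited values were log2 signals per probe set of the Gene 1.1 ST array, which the authors made with RMA (background correction, quantile normalization between arrays and a summary per probe set) in the Affymetrix Expression Console, per the submitters' processing notes. No software version is named in the sources read for this work. Replicate arrays are trials that the labels call independent. RMA forces equal distributions, so an overall shift in RNA would not show, and the number of arrays limits the precision.

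Of 29317 probe sets, 26761 with a gene symbol were tested. A linear model over all 11 arrays with 4 groups was fitted with limma 3.58.1 (R 4.3.3, eBayes), and p-values were adjusted by Benjamini-Hochberg over all tested probe sets at 0.05. All p-values are two-sided. Of the tested probe sets, 24801 matched RefSeq names (used for names and chromosomes only), and 480 carry several symbols and were not named. A gene with several probe sets was represented in the lists by the one with the highest mean. The T16G1 genes and other similar paralogs can share probes.

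Named were the 20 higher and up to 10 lower called genes with the largest change and a group mean of at least 2.27, up to 3 genes with the smallest p in each of 47 lists, the genes the study discusses and the largest unadjusted changes. cyp-35D1, the other cyp-35 genes, cyp-13B1, plpp-1.2, ckb-4, hmit-1.1, swt-7, apy-1, drd-5, Y38H6C.23, mel-32, sams-1, acdh-1, tdo-2, elt-3, glp-1, let-363 and daf-16 were added after their values were seen. The members and the lists were chosen with earlier results of these data known. The trial numbers were checked for pairing. Same-numbered methyl and benzyl ester arrays had correlated deviations (0.501, 0.235 and 0.742), as did methyl ester and tryptophan-betaxanthin arrays (0.214, 0.291 and 0.453). Blocked values therefore stand beside those comparisons. Correlations between arrays of unlike number were not computed for these pairs, and the third array of each ester stood apart. The correlations therefore cannot show that arrays pair by trial. The test was checked on simulated data. Alternatives were a trial block, other normalizations, array weights, filters, and leaving out arrays.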

Additional observations from a re-analysis of the deposited data

Results flagged for a closer look

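Probe sets without a gene symbol were outside the comparison described above. When they were tested in the same way, 1 of 2556 was higher with the methyl ester than with water (0.0391%, difference 1.43) and none was lower at an adjusted p under 0.05. Which gene it measures is not given in the tables used here.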

How the results depend on the processing

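For the methyl ester against water, the 69 calls became 319 with trial as a block. The deviations of same-numbered methyl ester and water arrays had correlations of 0.00552 and -0.0467. With 2 water arrays these values cannot show whether the arrays pair by trial. The 69 calls became 0 with only the methyl ester and water arrays and 1235 with array weights. They became 616 without the third trial and 171 at an adjusted p under 0.1. Leaving out 1 array at a time gave 0 to 135. Against the benzyl ester, 40 calls became 63 with the block and 123 without the third trial, and 24 to 54 with 1 array left out. Against tryptophan-betaxanthin, 366 calls became 2961 with the block and 882 without the third trial, and 12 to 1625 with 1 array left out. With the block, calls higher than water were 15 of 171 collagens, 2 of 30 moulting genes, 8 of 86 hedgehog-related genes, 8 of 67 ugt genes and 8 of 240 C-type lectins, with none lower in these lists. That fit called 271 higher and 48 lower of all 26761 probe sets. Lists with block calls both ways included the glutathione S-transferases (1 higher, 2 lower), the irg and dod genes (1 higher, 2 lower) and the insulin genes (2 higher, 1 lower). Without the third trial the C-type lectins had 12 higher and 3 lower calls. Of the germline lists, only 1 meiosis gene passed with the block, and it was lower. The cause of these changes was not tested. Cyclic loess (59), median centring (65), the intensity trend (52), only probe sets above the median (55), all probe sets (61) and a minimum of 1 log2 unit (47) stayed within 1.5 times. Median centring moved the higher share of the unadjusted calls to 40.9%, against 50.4%, with a shift of -0.027 in the median of all probe sets.

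Leaving out a benzyl ester or tryptophan-betaxanthin array cannot change a methyl ester difference from water, so part of the counts below was fixed in advance. A gene without a call also counts as kept if it stays so. Of the named genes' alternative values 3304 kept their direction and side of the threshold, 182 gained and 298 lost significance, and 9 changed sign, all of 2 genes near zero. csp-1 (0.00) gave 0.01 without the third trial and -0.02 to 0.02 with 1 array left out. sinh-1 (-0.01) gave 0.05 with the block, 0.13 with array weights, 0.14 without the third trial and -0.17 to 0.14 with 1 array left out. Of the lists' medians 847 moved by no more than the SD of the list's medians between the methyl ester arrays, and 46 by more. That SD includes the third array, so it is wide where that array stood apart. The count is therefore not a measure of stability. With 2 water arrays, none of 69 calls passed in every fit that left out 1 array.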

Other observations

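Some genes outside the lists had large differences whose groups did not overlap but that missed the adjusted threshold. dbd-18 had 5.65, 5.78 and 7.41 in methyl ester arrays, against 4.35 and 4.01 in water arrays (2.10 ± 0.46, adjusted p = 0.128), and F11E6.9 and ZK1025.3 differed by 2.27 ± 0.52 and 2.11 ± 0.38. All 3 were highest in the third methyl ester array. On the lower side nemt-1 had 4.34, 3.48 and 3.52 in methyl ester arrays, against 5.44 and 5.41 in water arrays (-1.65 ± 0.40, adjusted p = 0.155). ZK218.5 had 1.73, 1.84 and 2.23 in methyl ester arrays, against 3.68 and 3.96 in water arrays (-1.89 ± 0.62, adjusted p = 0.215), a decrease as large as that of T20F10.9 with a wider spread.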
